A study of Rattus norvegicus with 6 samples.

Results

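The genes described here are 9 members of the cell's force-sensing apparatus: the force-gated channel genes Piezo1, Piezo2 and Trpv4, the transcriptional regulators Yap1, Wwtr1 and Tead1, and the classic YAP target genes Ctgf, Cyr61 and Ankrd1. They were chosen by name, though with earlier results of these data known. All 9 were found among the 37203 gene names of the deposited count table (Ctgf and Cyr61 are older symbols of Ccn2 and Ccn1). The table holds RNA sequencing counts of alveolar tissue (jaw bone that bears the teeth, with its soft tissue) from 6 libraries of a rat model of orthodontic tooth movement. Teeth were moved in both groups, and the study asked what corticision, a surgical cut into the cortical bone, changes in the remodelling tissue. By title the libraries are case 5, 6 and 9 and control 5, 6 and 10. The source field labels the case libraries as tooth movement without corticision and the control libraries as tooth movement with it, the opposite of what case and control would usually mean. The titles are used as group names below, and differences are given as case minus control. The labels give no strain, sex, age, force, time after surgery or number of animals, nor whether each library is a separate animal, so the spread between libraries may be partly technical.

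Cells of bone and periodontal ligament are stretched and compressed when a tooth is loaded. Piezo and Trpv4 channels open under membrane tension or osmotic and shear stress and let calcium in. YAP (gene Yap1) and its paralogue TAZ (gene Wwtr1) are coactivators that the Hippo kinases hold in the cytoplasm. On stiff or stretched substrates they enter the nucleus, bind TEAD factors and drive genes such as Ctgf, Cyr61 and Ankrd1. The activity of YAP and TAZ is set largely by phosphorylation and location, which transcript counts do not measure. The table also has a row named Taz, the symbol of the tafazzin gene, which was not used.

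The sequences below show the letters to which TEAD factors bind, in front of the CCN target genes. They are the 250 bases upstream of the RefSeq transcription start on assembly GRCr8, 5′ to 3′ on the gene's strand (minus for both genes), with the TEAD core motif CATTCC or its reverse complement GGAATG in capitals. The Ctgf window is chr1:22624615-22624864 and the Cyr61 window is chr2:237225690-237225939.
Ctgf (Ccn2): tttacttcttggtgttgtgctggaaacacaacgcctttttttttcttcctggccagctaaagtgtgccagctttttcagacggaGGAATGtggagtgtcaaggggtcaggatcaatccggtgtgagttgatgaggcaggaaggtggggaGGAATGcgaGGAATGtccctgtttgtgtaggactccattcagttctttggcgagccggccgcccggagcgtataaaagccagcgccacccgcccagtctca
Cyr61 (Ccn1): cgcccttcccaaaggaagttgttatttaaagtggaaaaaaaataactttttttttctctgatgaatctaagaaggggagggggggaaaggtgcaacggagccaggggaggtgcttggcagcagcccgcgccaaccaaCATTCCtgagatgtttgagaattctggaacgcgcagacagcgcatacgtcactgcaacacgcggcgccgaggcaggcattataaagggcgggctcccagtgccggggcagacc
Ctgf held 3 matches, beginning 166, 101 and 92 bases before the start, and Cyr61 held 1, beginning 113 bases before it. Among 33469 RefSeq windows of this length, 12.1% held a match on either strand and 0.0807% held 3 or more. Of the 9 members, 6 had a window. Yap1 also held 1 match, 116 bases before its start, and the windows of Wwtr1, Trpv4 and Piezo2 held none. A match describes letters and shows no binding in these samples.

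Library totals ranged from 10886303 to 14433740 counts, and levels below are in CPM, counts per 1000000 of the composition-scaled library total. At this depth a count of 0 allows up to 0.199 to 0.273 CPM for counting error alone. Bone markers fixed for the check of the tissue were abundant in all libraries: the 5 osteoblast genes summed to between 42729 and 83690 CPM and the 4 osteocyte genes to between 3414 and 5751 CPM. Other tissues entered unevenly. The 5 genes of tooth-forming cells reached 452 CPM together in case 5, 78.7 CPM in control 5 and at most 7.07 CPM elsewhere, with Dspp and Enam at 0 in some libraries. The 6 epithelial genes reached 3512 CPM in control 5 and at most 37.2 CPM elsewhere. The 7 skeletal muscle genes ranged from 8.29 CPM in control 5 to 1105 CPM in case 9.

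None of the 9 members passed the test between case and control over all genes, and none had groups that did not overlap. The quasi-likelihood test of edgeR called 0 of the 16066 tested genes (percent called 0), with 666 genes (4.15%) at an unadjusted p under 0.05, where DESeq2 called 21 genes and limma-voom 0, none of them a member. All 9 members were deep enough to be tested. Of them, 6 had a negative and 3 a positive log2 fold change, against 53.7% negative among all tested genes. Their median was -0.16, beside -0.02 for all tested genes. Ankrd1 was the only member at an unadjusted p under 0.05. Across all tested genes the groups did not overlap in 8.47%. Every member's adjusted p in edgeR was 0.999. With 3 libraries a group, the intervals given below (95%, not adjusted for the number of genes) show the range of differences that each gene's counts allow. They do not give the size of difference that the adjusted test would miss. Fewer cells of a type and less RNA per cell cannot be told apart in such bulk tissue.

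**Figure D1:**
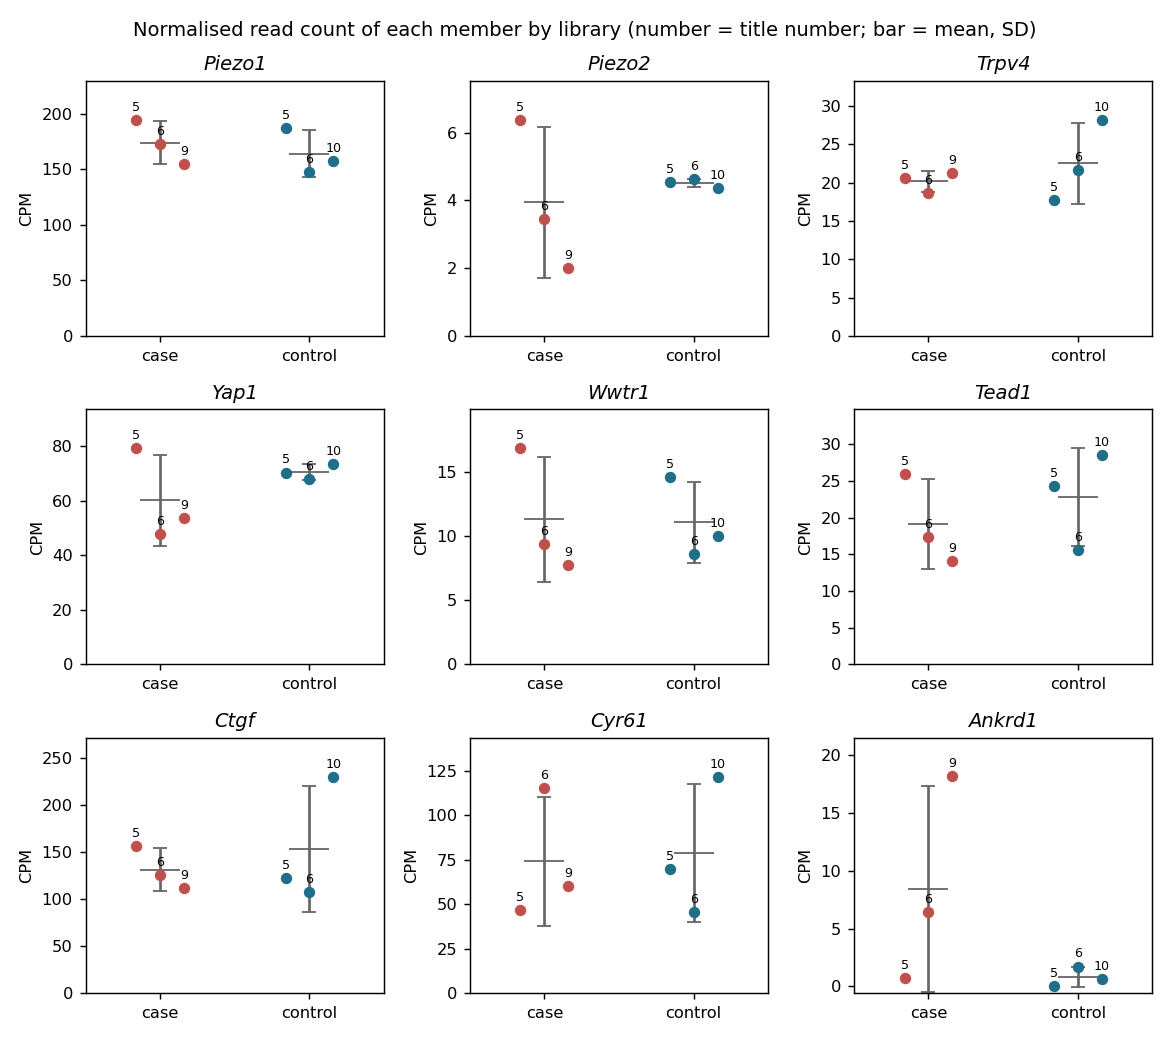
CPM of the 9 members in each library, 1 panel per gene with its own axis in CPM; points are libraries marked with their title number, and the grey bar is the group mean with its SD (n = 3). The case and control points overlap in all 9 panels, and Ankrd1 has its 2 highest points in case 9 (18.2 CPM) and case 6 (6.44 CPM).

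The channel genes differed little between the groups. Piezo1, the channel most often linked to load sensing in bone cells, was at 194, 172 and 155 CPM in case 5, 6 and 9 and at 187, 147 and 157 CPM in control 5, 6 and 10. The libraries of both groups were interleaved, and the highest level was only 1.32 times the lowest. Group means were 174 ± 19.7 CPM (case) and 164 ± 20.9 CPM (control), where ± is the SD of 3 libraries as in all such values below. This gave a log2 fold change of 0.09 (SE 0.16) with an interval of -0.29 to 0.46, so a 2-fold difference in either direction lies outside it. In the RefSeq gene table, which was used only for neighbourhood, the span of Piezo1 overlaps that of Ctu2, a tRNA-modifying gene at 15.5 to 24.9 CPM, and shared reads there would be uncertain.

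Piezo2, the touch and proprioception channel of sensory endings, was scarce, with 24 to 80 counts a library. It was at 6.38, 3.45 and 2.01 CPM in case 5, 6 and 9 and at 4.54, 4.63 and 4.38 CPM in control 5, 6 and 10. The control libraries were close together, while the case libraries lay on both sides of them. Piezo2 had a log2 fold change of -0.19 (SE 0.43, interval -1.20 to 0.81), and it was 0.12 without case 9. Trpv4, a channel of chondrocytes, osteoblasts and osteoclasts that answers to osmotic and shear stress, was at 20.6, 18.6 and 21.2 CPM in case and at 17.7, 21.6 and 28.2 CPM in control 5, 6 and 10. All case libraries fell within the control range. Its log2 fold change was -0.16 (SE 0.21, interval -0.64 to 0.33), and it was 0.070 without control 10, the highest library.

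The coactivator YAP showed a similar picture with 1 case library standing apart. Yap1 was at 79.2, 47.7 and 53.7 CPM in case 5, 6 and 9 and at 70.4, 67.9 and 73.6 CPM in control 5, 6 and 10. Case 6 and case 9 lay below all control libraries and case 5 above them, so the SD was 16.7 CPM around a case mean of 60.2 CPM and 2.84 CPM around a control mean of 70.6 CPM. For Yap1 the log2 fold change was -0.23 (SE 0.20, interval -0.71 to 0.25). Without case 5 it was -0.45, with an adjusted p of 0.498 in edgeR, and without case 6 it was -0.088. Case 5 is also the library with the most transcripts of tooth-forming cells (452 CPM). Marker sums of several other cell types put case 6 and case 9 below all control libraries, as Yap1 did. The 5 endothelial genes summed to 354 and 324 CPM there, against 421 to 459 CPM in control and 432 CPM in case 5. The 5 erythroid genes summed to 1246 and 4786 CPM there, against 8924 to 15628 CPM in control and 14016 CPM in case 5. Osteoblast genes summed to 44850 and 42729 CPM there, against 48651 to 70448 CPM in control and 83690 CPM in case 5. Col1a1 made up most of that sum, at 38598 and 35945 CPM there. Alone of the osteoblast genes it lay below all control libraries in both. Alpl, for example, was at 1140 and 1320 CPM there, against 869 to 1181 CPM in control. Ligament and fibroblast genes summed to 5736 and 6252 CPM there, against 8062 to 12860 CPM in control and 10354 CPM in case 5. Mural cell genes summed to 404 and 428 CPM there, against 484 to 622 CPM in control and 541 CPM in case 5. Single genes without this order were Kdr (endothelial), Scx and Aspn (ligament and fibroblast), and Acta2, Myh11 and Notch3 (mural cell). No other marker list had this order in its sum. The part of cell types in the Yap1 value was not tested.

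Wwtr1, which encodes TAZ, was at 16.8, 9.36 and 7.71 CPM in case 5, 6 and 9 and at 14.6, 8.56 and 10.03 CPM in control 5, 6 and 10. Both libraries numbered 5 stood above the other 4, whichever group they belonged to. The means were 11.3 ± 4.85 and 11.1 ± 3.14 CPM, with a log2 fold change of 0.03 (SE 0.35, interval -0.80 to 0.86) that was -0.34 without case 5 and -0.09 without control 6. Tead1, a DNA-binding partner of both coactivators, was at 25.9, 17.4 and 14.1 CPM in case and at 24.4, 15.5 and 28.5 CPM in control. Its highest library was control 10, followed by case 5 and control 5. Tead1 had a log2 fold change of -0.25 (SE 0.30, interval -0.96 to 0.46), which ran from -0.51 without case 5 to -0.025 without control 10. Wwtr1 counts per Yap1 count, a ratio free of scaling, were 0.212, 0.196 and 0.144 in case and 0.207, 0.126 and 0.136 in control. They overlapped between the groups (exact permutation test, two-sided, p = 0.4).

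The target genes Ctgf and Cyr61 encode secreted CCN matricellular proteins and respond to YAP, to transforming growth factor beta and to serum factors. Ctgf was at 157, 126 and 112 CPM in case 5, 6 and 9 and at 123, 107 and 230.4 CPM in control 5, 6 and 10. Control 10 stood far above the other libraries, while control 5 fell among the case libraries and control 6 just below them. The means were 132 ± 23.1 and 153 ± 67.1 CPM. The log2 fold change was -0.22 (SE 0.30, interval -0.93 to 0.49), and 0.23 without control 10. Control 10 also had the highest sum of the ligament and fibroblast markers (12860 CPM, against 5736 to 10406 CPM elsewhere). It was highest too for the mural cell markers (622 CPM, against 404 to 599.9 CPM elsewhere). The same held for the endothelial (459 CPM, against 324 to 432 CPM elsewhere) and osteoclast markers (6035 CPM, against 2964 to 5627 CPM elsewhere). Several single genes of these lists were highest in another library, among them Scx, Rgs5, Cdh5 and Acp5. The part of these cell types in the Ctgf value was not tested.

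Cyr61 was at 46.8, 115 and 60.4 CPM in case 5, 6 and 9 and at 69.8, 45.5 and 122 CPM in control 5, 6 and 10. A high library occurred in each group, control 10 and case 6, and the level varied 2.67-fold over the 6 libraries. The means were 74.2 ± 36.3 and 79.0 ± 38.9 CPM, with a log2 fold change of -0.09 (SE 0.43, interval -1.11 to 0.92) that ran from -0.56 without case 6 to 0.40 without control 10. The fit thus set no direction for either CCN gene. Cyr61 counts per Ctgf count were 0.298, 0.914 and 0.541 in case and 0.569, 0.425 and 0.528 in control. The ratio spread more widely in case than in control, and these genes did not keep step across the case libraries. Its two-sided exact permutation p was 0.8. Over the 3 ratios compared (with Piezo2 per Piezo1, p = 0.5 in the same exact permutation test) the adjusted p were 0.75 to 0.8, where 3 libraries against 3 allow no p under 0.1. The ratios were chosen after the counts had been seen.

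The genes whose levels most resembled those of the targets were found by the root-mean-square difference of log2 CPM, each gene centred on its own mean, over 6 libraries. Shared high and low libraries are thus largely built into the choice of these genes. For Ctgf, among 10766 candidates with a mean of at least 5 CPM, the closest were Ace, the angiotensin-converting enzyme (0.14), Ppbp, a platelet chemokine (0.16), Wdr35l (0.16), Ptger4, a prostaglandin E receptor (0.16), and S1pr3, a sphingosine phosphate receptor (0.16). Like Ctgf, these 5 genes were highest in control 10. S1pr3, for example, was at 144 CPM there and at 73.2 to 93.5 CPM elsewhere. For Cyr61 the closest were Arsi, a sulfatase (0.23), Fst, the activin antagonist follistatin (0.23), Lpl, lipoprotein lipase (0.23), Gadd45g, a stress-response gene (0.26), and Igfbp4, an insulin-like growth factor binding protein (0.26). Lpl shared its high libraries, with 98.3 CPM in case 6 and with 77.3 CPM in control 10, against 41.8 to 54.2 CPM elsewhere.

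**Figure D2:**
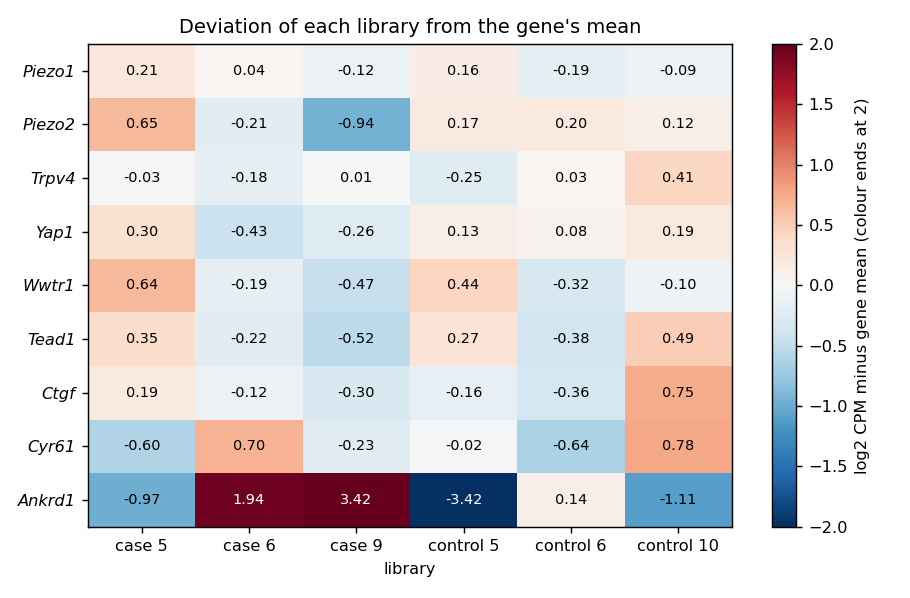
Log2 CPM of each member in each library minus the gene's mean over the 6 libraries; red is above and blue below the mean, and the colour scale ends at 2. Ctgf (0.75) and Cyr61 (0.78) are both highest in control 10, Wwtr1 is highest in case 5 (0.64) and control 5 (0.44), and Ankrd1 spans -3.42 in control 5 to 3.42 in case 9.

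Ankrd1 was the member with the largest difference and the least certain one. It encodes a muscle ankyrin repeat protein that YAP induces in many cell types and that injured, stretched or regenerating striated muscle makes in quantity. Its counts were 9, 97 and 217 (case 5, 6 and 9) against 0, 22 and 7 (control 5, 6 and 10), that is 0.717, 6.44 and 18.2 CPM against 0, 1.73 and 0.638 CPM. Case 9 and case 6 stood above all control libraries, while case 5 lay within the control range. The means were 8.45 ± 8.91 and 0.788 ± 0.873 CPM, and the SD in case exceeded the case mean. The log2 fold change was 3.38 (SE 1.29, interval 0.37 to 6.39), with an edgeR p of 0.0323 before and 0.999 after adjustment. It remained positive whichever library was left out, from 2.16 without case 9 to 4.72 without control 6, with unadjusted p of 0.00817 without case 5 and 0.147 without case 9. In limma-voom the unadjusted p was 0.117. The biological coefficient of variation of Ankrd1 was 1.02, where the median tested gene had 0.262, and it exceeded that of 99.1% of tested genes.

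Of the 5 genes closest to Ankrd1 among 10767 candidates, 3 encode muscle proteins. Myh3, the embryonic myosin heavy chain that is re-expressed in regenerating fibres, came first (root-mean-square difference 0.65). It was at 2.07, 8.49 and 17.3 CPM in case 5, 6 and 9 and at 0.0873, 5.18 and 2.46 CPM in control 5, 6 and 10. Csrp3, the stretch-responsive muscle LIM protein, followed (0.88) at 0.319, 5.57 and 24.1 CPM in case against 0, 4.71 and 2.37 CPM in control. Then came Tnni1, the slow skeletal troponin I (1.22), H19, an imprinted growth-related RNA (1.24), and Tap2, a peptide transporter of antigen presentation (1.28). Case 9 was the highest library for each of these 5 genes and control 5 the lowest, which their choice by likeness to Ankrd1 largely fixed in advance. Among other genes of developing muscle, Myh8, the perinatal myosin heavy chain, was highest in case 6 (9.29 CPM, against 1.59 CPM in case 9). The myogenic factor Myod1 had 0 to 3 counts in every library. Myog, another myogenic factor, had 2, 7 and 7 counts in case and 0, 0 and 2 in control, too few for the test. The 7 markers of mature skeletal muscle (Ckm, Acta1, Mylpf, Tnnt3, Tnnc2, Myh4 and Myh2) summed to 96.0, 318 and 1105 CPM in case against 8.29, 886 and 852 CPM in control 5, 6 and 10, with Myh2 at 0 in control 5. The highest and the lowest library were thus those of Ankrd1, but the sum in control 6 and control 10 was above that in case 6, where Ankrd1 was higher. The part of muscle content in the Ankrd1 difference was not tested.

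**Figure D3:**
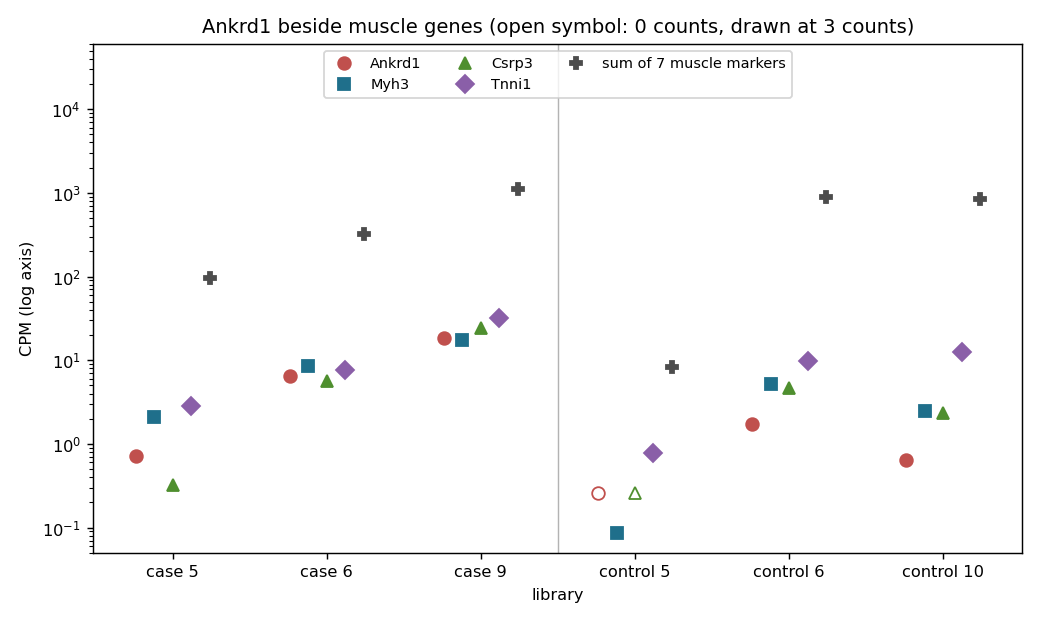
CPM on a log axis of Ankrd1, of Myh3, Csrp3 and Tnni1, and of the sum of 7 mature muscle markers in each of the 6 libraries; open symbols are 0 counts, drawn at the level of 3 counts. Case 9 is highest in all 5 series and control 5 is lowest, while the marker sum in control 6 (886 CPM) exceeds that in case 6 (318 CPM) and Ankrd1 does not (1.73 against 6.44 CPM). Myh3, Csrp3 and Tnni1 were chosen for their likeness to Ankrd1 over these libraries.

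**Figure D4:**
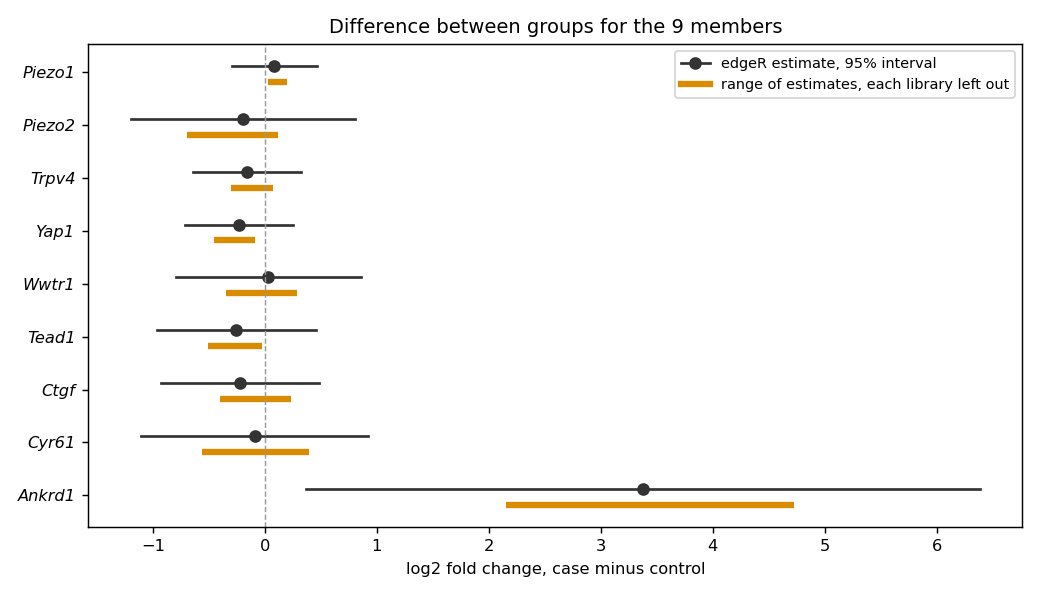
Log2 fold change of the 9 members, case minus control: black points and lines are the edgeR estimate and its 95% interval, and orange bars are the range of estimates when each library is left out in turn. The interval of 8 members includes 0, that of Ankrd1 runs from 0.37 to 6.39, and the orange bars of Piezo2, Trpv4, Wwtr1, Ctgf and Cyr61 cross 0.

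The wider pathway was read from 6 lists of related genes, in which 0 genes passed over all genes. Together with the members they held 88 tested genes, of which 60 had a negative fold change, against 53.7% of all tested genes. Groups did not overlap in 7 of the 88, near the 8.47% of all tested genes, and 5 had an unadjusted p under 0.05, against 4.15% of all tested genes. The median over the 88 was -0.14, beside -0.02.

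Among force-gated and mechanically modulated channels, 12 of 19 tested genes had a negative and 7 a positive fold change (median -0.08). The median was -0.16 without case 5 and also without control 6, and 0.016 without case 9. Gja1, which encodes the gap junction protein connexin 43 of osteoblasts and osteocytes, was at 353, 151 and 167 CPM in case 5, 6 and 9 and at 363, 352 and 324 CPM in control 5, 6 and 10. Its control libraries were close together, and case 5 lay among them while case 6 and case 9 were far below. The log2 fold change was -0.63 (SE 0.33), and without case 5 it was -1.10 with an adjusted p of 0.451 in edgeR, while without case 6 it was -0.41. Case 6 and case 9 were also the lowest libraries in the endothelial, erythroid, osteoblast, ligament and fibroblast, and mural cell sums given beside Yap1. In the osteoblast sum this came from Col1a1, and the other osteoblast genes did not have it. Some mural cell genes, such as Acta2, did not have it either. By contrast, the osteocyte sum was lowest in control 10 (3414 CPM). The part of these cell types in the Gja1 value was not tested. The polycystin channel Pkd2 of the primary cilium was at 30.7 ± 10.1 and 42.4 ± 8.72 CPM (-0.47, from -0.74 without case 5 to -0.28 without control 5).

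Of 26 tested genes of the Hippo kinase cassette and its regulators, 18 had a negative and 8 a positive fold change (median -0.08). The sign of that median depended on single libraries. It turned positive when case 6 (0.0027), case 9 (0.039) or control 5 (0.069) was left out, and reached -0.26 when case 5 was left out. Taok3, a kinase upstream of the cassette, was at 55.7, 47.8 and 42.0 CPM in case and at 40.0, 36.9 and 31.7 CPM in control. Nf2, the scaffold merlin that activates the kinases, was at 79.4, 73.2 and 69.8 CPM in case and at 99.4, 84.0 and 90.0 CPM in control. Neither gene's groups overlapped, with Taok3 above control (log2 fold change 0.42, SE 0.17) and Nf2 below it (-0.30, SE 0.13). Their unadjusted edgeR p were 0.0373 and 0.0605, and both had an adjusted p of 0.999. The FERM protein Frmd6 had a log2 fold change of -0.29 with overlapping groups. The kinases Lats1 (24.1 ± 8.87 and 27.7 ± 5.70 CPM) and Lats2 (40.5 ± 13.7 and 44.6 ± 8.27 CPM) and the angiomotin-like Amotl2 (61.5 ± 10.4 and 65.6 ± 13.0 CPM), the latter pair being YAP targets themselves, also overlapped.

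Among YAP, TAZ, TEAD and the Vgll cofactors, which compete for or join TEAD, 6 of 8 tested genes were negative in log2 fold change (median -0.17, and -0.028 without control 10). The other TEAD factors were Tead2 (20.1 ± 3.62 and 24.5 ± 6.83 CPM), Tead3 (18.2 ± 1.05 and 20.5 ± 4.26 CPM) and Tead4 (7.95 ± 0.531 and 8.96 ± 2.79 CPM), with overlapping groups in each. Vgll3 was at 5.42 ± 2.92 and 2.80 ± 1.05 CPM, also overlapping. In the YAP and TAZ target signature, 14 of 21 tested genes were negative; the median of -0.14 turned to 0.019 without case 9 and to 0.021 without control 10. The signature has 22 genes, and Arhgef17 was not matched to a name of the table. Its members with the smallest p were Ankrd1, Dock5 (71.5 ± 12.5 and 58.5 ± 4.59 CPM), an exchange factor of Rac used by osteoclasts, and Gadd45a (47.3 ± 5.88 and 39.4 ± 4.67 CPM), a stress-response gene, both overlapping. No gene of the signature had groups that did not overlap.

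In the CCN family, the relative of Ctgf and Cyr61 with the smallest p was Wisp2 (now Ccn5), a family member that lacks the C-terminal domain of the others. Wisp2 was at 29.0, 30.3 and 30.5 CPM in case 5, 6 and 9 and at 38.0, 57.2 and 62.2 CPM in control 5, 6 and 10. The case libraries were nearly equal and lay below all control libraries. The log2 fold change was -0.81 (SE 0.20), with an edgeR p of 0.00454 before and 0.999 after adjustment, and it ran from -0.99 without control 5 to -0.64 without control 10. In DESeq2 the adjusted p was 0.277. Nov (Ccn3) was at 3.75 ± 1.596 and 7.08 ± 6.12 CPM and reached 13.8 CPM in control 10. All 5 tested family members were negative; their median of -0.22 ran from -0.65 without case 5 to 0.036 without control 10. Wisp1 (Ccn4) was at 102, 17.9 and 16.8 CPM in case against 74.3, 46.2 and 29.9 CPM in control, highest in both libraries numbered 5.

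Serum response factor (SRF) and its actin-regulated coactivators of the MRTF family form a parallel route from cytoskeletal tension to the same genes. Mkl1, the older symbol of the coactivator MRTF-A, was at 88.1, 96.7 and 84.8 CPM in case 5, 6 and 9 and at 67.9, 66.0 and 58.6 CPM in control 5, 6 and 10. Every case library lay above every control library, with a log2 fold change of 0.49 (SE 0.13), an edgeR p of 0.00754 before and 0.999 after adjustment, and a DESeq2 adjusted p of 0.314. Among the contractile genes that this route drives, Actg2, smooth muscle gamma actin, was at 4.86, 7.90 and 8.47 CPM in case against 8.56, 10.4 and 25.5 CPM in control (-1.07), and the value was -0.39 without control 10. Tagln, the calponin-related protein transgelin, was at 89.3 ± 24.7 and 138 ± 54.0 CPM (-0.63), and -0.23 without control 10. The actin genes are near-identical in their coding parts, so reads of Actg2 are uncertain. In the whole list 10 of 14 tested genes were negative, the median of -0.21 was -0.029 without control 10, and groups did not overlap in 3 (Mkl1, Actg2 and Tpm1), or 21.4%, beside 8.47% of all tested genes. Of the 5 mural cell markers, smooth muscle and pericyte genes of vessels, 4 also had negative fold changes, and they summed to 404 to 541 CPM in the case libraries and 484 to 622 CPM in the control libraries. Acta2 and Myh11 stand on both lists, and the part of mural cells in the contractile genes was not tested.

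**Figure D5:**
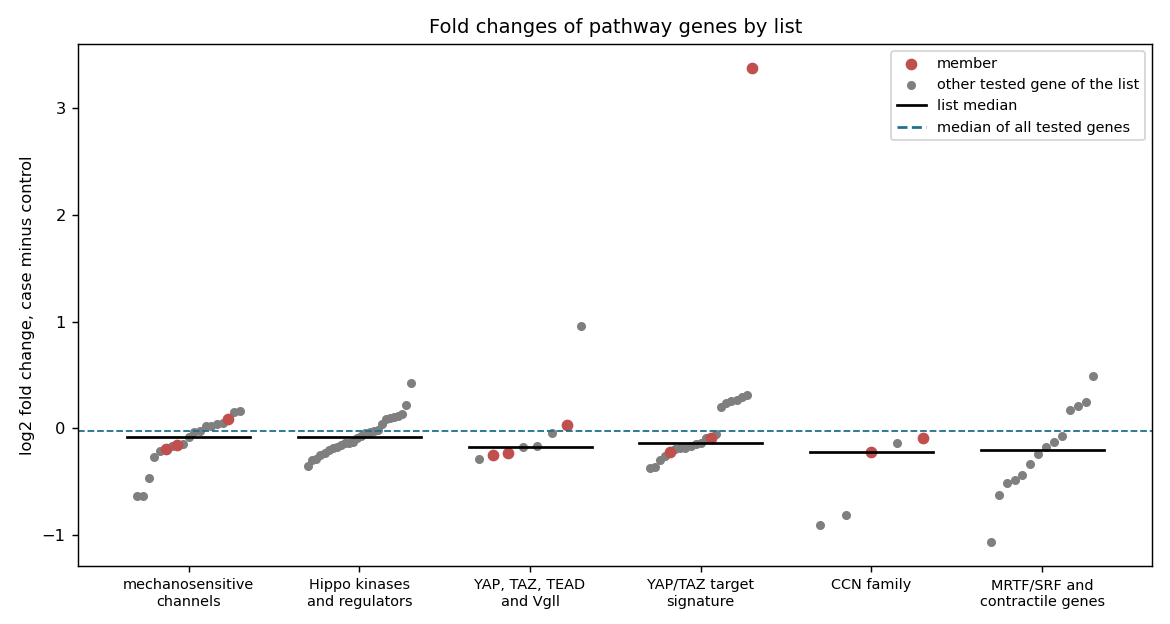
Log2 fold change, case minus control, of every tested gene of the 6 lists, sorted within a list; red points are the members, black bars the list medians and the dashed line the median of all tested genes (-0.02). List medians lie between -0.22 and -0.08, and Ankrd1 (3.38) stands apart from all other genes shown.

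In several pathway genes the libraries numbered 5 stood apart from the other 4, whichever group they belonged to. Number 6, which also occurs in both groups, was not examined in this way. Both libraries numbered 5 lay above the other 4 in 30 of the 88 tested genes of the lists (34.1%), beside 20.0% of all tested genes, and below them in 8 (9.09%), beside 17.8%. The labels do not say what the number stands for, and this pattern of the libraries was known from earlier results. Among the members these were Piezo1 and Wwtr1. In the Hippo list 14 of 26 genes had this order. They include the giant cadherin Fat4, at 18.01 and 13.7 CPM in case 5 and control 5 and 2.85 to 6.59 CPM elsewhere, and the cadherin Fat1, at 907 and 689 CPM and 408 to 516 CPM elsewhere. Mob1b, an activator of the Lats kinases, was at 9.16 and 8.03 CPM and at 1.26 to 3.37 CPM elsewhere. Fat1, Fat4 and Mob1b were named after their values had been seen. In the MRTF and SRF list 1 of 14 genes had this order and 5 had the opposite one. The same libraries had the highest sums of the markers of tooth-forming cells (452 and 78.7 CPM). Osteocyte markers had this order in their sum too (4543 and 5751 CPM, 3414 to 4368 CPM elsewhere). Phex alone of the osteocyte genes had it. For Dmp1, control 6 exceeded case 5 (2302 against 2213 CPM). Mepe, Sost and the tooth-forming gene Amelx were not highest in both either. The libraries numbered 5 also had the lowest sums of 3 other marker lists: skeletal muscle (96.0 and 8.29 CPM, at least 318 CPM elsewhere), osteoclasts (2964 and 3195 CPM, at least 4279 CPM elsewhere) and macrophages (756 and 722 CPM, at least 899.8 CPM elsewhere). Of the macrophage genes Cd68 and Csf1r were lowest in both. By contrast, Emr1 was highest in case 5 (41.8 CPM), and Mrc1 was higher in case 5 (81.8 CPM) than in case 9 (74.1 CPM). Dcstamp, Atp6v0d2 and Myh4 were not lowest in both either. The part of these cell types in the order was not tested.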

How the data were processed

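Total RNA of alveolar tissue was isolated with TRIzol and sequenced single-end from Ion Total RNA-Seq Kit libraries, per the labels' protocols. The authors deposited whole-number counts per gene symbol for 6 libraries, with no normalization so far as the values show. Neither the labels nor the table name an aligner, counting program, genome build, annotation or strand setting, so overlapping or near-identical genes are uncertain.

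The members and lists were chosen with earlier results of these data known. Genes were filtered with filterByExpr (16066 left), normalized with TMM and tested two-sided in edgeR 4.0.16 (glmQLFTest, R 4.3.3), with group alone in the design and a Benjamini-Hochberg adjusted threshold of 0.05 over all tested genes. CPM are counts per 1000000 of the TMM-scaled total, and log2 CPM used a prior count of 2. SE is the log2 fold change over the root of the F statistic. Named were the 9 members, Tead2, Tead3, Tead4, Lats1, Lats2, Amotl2, the 3 smallest-p genes of each list, and the genes closest to the targets; others were named after their values were seen. A gene that this rule names in the channel list is not reported here.

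In simulated counts of the same 16066 genes changes of 2-fold were called in 8.96% of cases, those of 4-fold in 69.9% and those of 8-fold in 88.2%. Of the genes called, 8.02% were false on average. Each of 5 simulations changed 200 genes drawn at random, with each gene's own variation. The rates are thus averages and not those of a single member such as Ankrd1. Alternatives were other scalings and filters, DESeq2 1.42.0, limma-voom (limma 3.58.1), robust moderation, the title number as block or covariate, and leaving out libraries. Promoter sequences are RefSeq's (GRCr8), matched by symbol or synonym.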

Additional observations from a re-analysis of the deposited data

How the results depend on the processing

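No member and no gene of the 6 lists passed the adjusted threshold under any of the 17 alternatives. Over all genes DESeq2 called 21, leaving out 1 library gave 0 to 2 calls (2 without control 5), and the other alternatives gave 0. The 666 genes at an unadjusted p under 0.05 became 1113 with no filter, 1380 with number 5 as a covariate, 2294 without both libraries numbered 5, and 367 (without case 6) to 1566 (without case 5) when each library was left out; it was 1215 without control 5 and 401 without control 10. Ankrd1, Piezo1 and Yap1 kept their direction under all 17 alternatives.

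The labels do not say that equal title numbers pair libraries, and only numbers 5 and 6 occur in both groups, so the block rests on 4 libraries. Deviations from the group means correlated at 0.38 for number 5 and 0.14 for number 6, across genes, while case 9 and control 6 reached 0.28. With the title number as replicate block, 0 genes passed over all genes, 653 had an unadjusted p under 0.05, and the log2 fold changes of Ctgf (0.30), Cyr61 (0.39), Piezo2 (0.036), Tead1 (0.12), Trpv4 (0.0026), Lats2 (0.11), Nov (0.17) and Tead3 (0.021) turned positive, as did the medians of the 6 lists (0.0026 to 0.17).

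Wwtr1 turned negative in limma-voom (-0.011), with number 5 as a covariate (-0.0083) and without both libraries numbered 5 (-0.080). Without both, Cyr61 (0.11), Amotl2 (0.0043) and Tead4 (0.13) turned positive. With each library left out in turn, values ran from -0.40 to 0.23 for Ctgf, -0.56 to 0.40 for Cyr61, -0.69 to 0.12 for Piezo2, -0.30 to 0.070 for Trpv4, -0.34 to 0.28 for Wwtr1, -0.18 to 0.082 for Amotl2, -0.42 to 0.021 for Lats2, -1.37 to 0.036 for Nov, -0.24 to 0.042 for Tead3 and -0.33 to 0.10 for Tead4. The causes were not tested. Depth limits Piezo2 and the control values of Ankrd1.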
